A study of Mus musculus with 24 samples.

Results

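The complement components and receptors described here are 9 mouse genes: *C1qa*, *C1qb*, *C1qc*, *C3*, *Cfb*, *Cfp*, *C3ar1*, *C5ar1* and *Cd93*. They were taken by name from an expression table of 23930 amplicons, 1 per gene, in 24 libraries of sorted mouse spleen cells. Of the 9 genes, 8 had a row and 1, *Cfb* (complement factor B), had none and is not described further. *C1qa* and *C1qc* were read so rarely that they did not reach 1 RPM (reads per 1000000 mapped reads) in any library. The other 6 reached at least 1 RPM in at least 4 libraries of each sorted subset and entered the tests.

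The libraries came from untreated C57BL/6 mice of 3 genotypes: WT, Slc29a3-/- and Slc29a3-/- Tlr7-/-. Slc29a3 is a lysosomal nucleoside transporter and Tlr7 an endosomal RNA sensor. Both mutations were introduced with CRISPR and are germline, so they were present in every cell and not only in the sorted ones. From each genotype 2 subsets of CD11b+ Ly6G- SiglecF- NK1.1- cells were sorted, Ly6C hi and Ly6C low, with 4 libraries per group (n = 4 throughout). The labels call the cells macrophages and the study calls them monocytes. Sex and age of these mice were not stated in the sources used here. The comparisons address how gene expression in each subset changed with loss of Slc29a3, and whether the change was seen when Tlr7 was lost as well.

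Complement is a set of plasma and cell-surface proteins that marks particles for uptake. C1q, built of A, B and C chains, starts the classical pathway by binding immune complexes and dying cells, and in the spleen it is made mainly by tissue macrophages and related phagocytes. All pathways meet at C3, whose cleavage deposits an opsonin on the target and releases the small peptide C3a, and further cleavage of C5 releases C5a. Properdin, encoded by *Cfp*, stabilizes the alternative pathway enzyme that cleaves C3. C3a and C5a act on the receptors encoded by *C3ar1* and *C5ar1*, and CD93 is a surface glycoprotein of myeloid and progenitor cells that was once proposed as a C1q receptor.

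The depth implied by the RPM steps was 12311037 to 14572266 reads per library. At this depth 3 reads correspond to 0.206 to 0.244 RPM, which is the level a count of 0 still allows. WT replicates 1 to 3 of both subsets stood apart from the other libraries. They carried barcodes 11 to 16 against 24 to 46 elsewhere, had 14237380 to 14572266 reads against 12311037 to 13048399, and their summed level of 15 immediate early genes was 14687 to 20332 RPM against 1580 and 2583 RPM in the replicate 4 libraries of WT Ly6C hi and Ly6C low. In Ly6C hi, these 3 libraries also differed from each other by less than other replicates did: the chi-square per gene, which is 1 for sampling noise alone, was 5.93 to 8.33 against 11.3 to 182 in pairs outside WT replicates 1 to 3. The labels do not say whether they came from separate mice, and p-values measure only the spread between these samples. For calls against WT, the text therefore says where the call changed when replicate 4 was the only WT library, or when WT replicates 1 to 3 were averaged to 1 library. The amplicons of *Slc29a3* and *Tlr7* were read in all groups (*Slc29a3* at 127 to 173 RPM in Ly6C hi Slc29a3-/- and 163 to 225 RPM in Ly6C hi WT), so that the genotypes rest on the labels.

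The sorted subsets carried the genes they were sorted by and those known to go with them. *Fcgr4*, one of the sorting markers, had a mean of 33.6 RPM in Ly6C hi WT and 744 RPM in Ly6C low WT. The summed level of 6 Ly6C hi monocyte genes was 3243 to 9377 RPM in the Ly6C hi libraries and 29.004 to 295 RPM in the Ly6C low libraries. Ly6C itself could not be checked, since neither *Ly6c1* nor *Ly6c2* had a row. In bulk samples fewer cells of a type and less RNA per cell cannot be told apart.

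**Figure D1:**
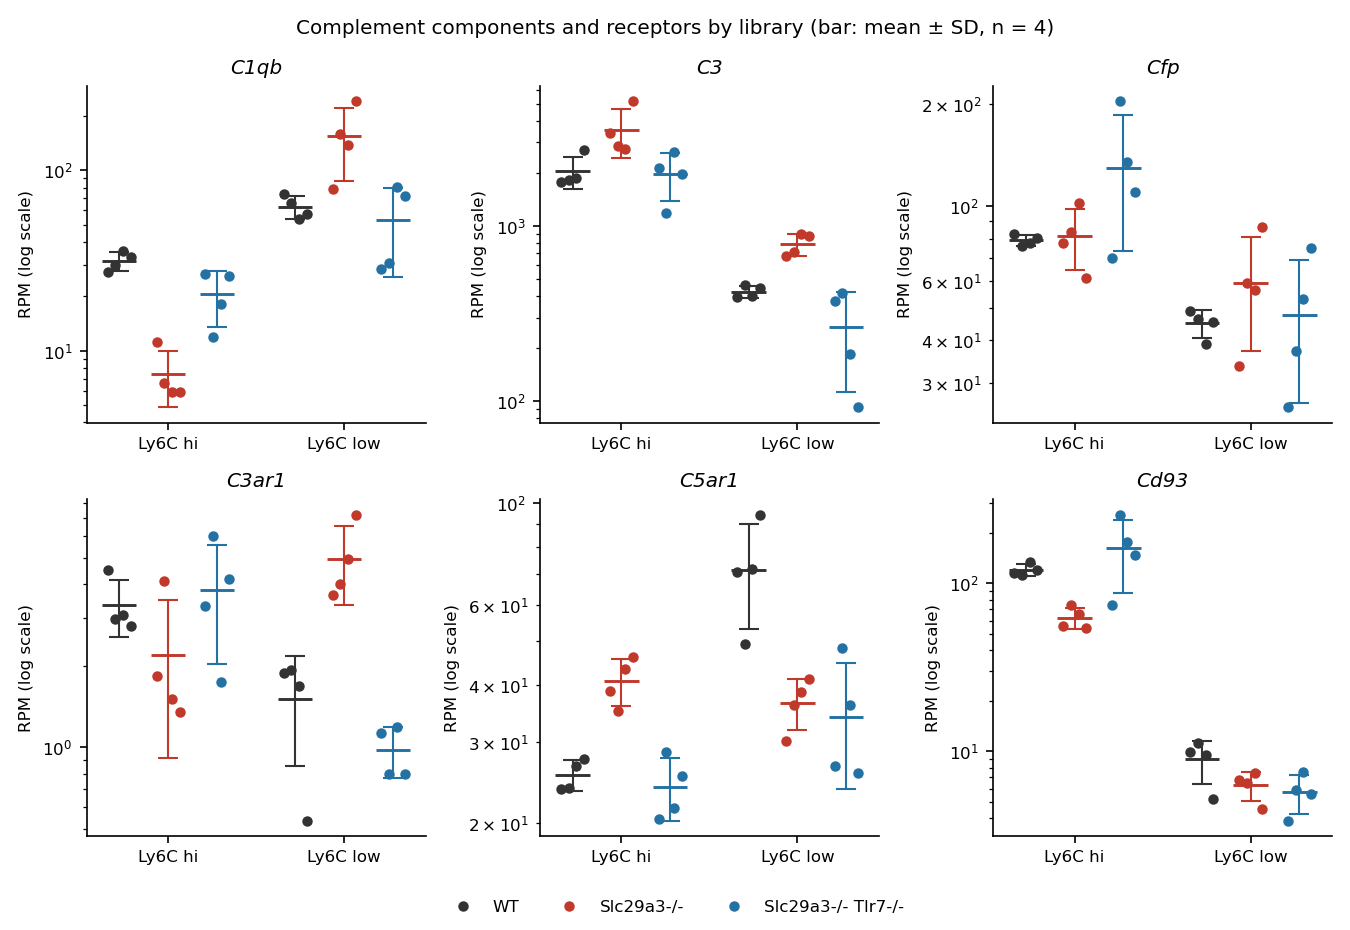
RPM on a log axis of the 6 tested genes in each of the 24 libraries, by subset (x axis) and genotype (colour); horizontal bars are means and error bars SDs of 4 libraries. *C1qb* is lowest in Ly6C hi Slc29a3-/- (mean 7.38 RPM) and highest in Ly6C low Slc29a3-/- (mean 154 RPM), while *C3* and *Cd93* separate the subsets in every genotype.

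Among the C1q chains only *C1qb* (chr4:136880129-136886187, minus strand, mm10) was read well. The genes of the 3 chains are neighbours on chromosome 4, with *C1qc* at chr4:136889804-136893065 and *C1qa* at chr4:136895917-136898803. *C1qa* had 0 or 1 read in every library and *C1qc* had 0 to 11 reads, both far below the 74 to 3032 reads of *C1qb*. One amplicon stands for each gene and its yield per transcript is unknown, so levels of the chains were not compared with each other and only differences between samples are given.

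To show what lies upstream of the C1q chain that was read and of *C3*, the 250 bases before the start of transcription of both genes are printed 5′ to 3′ from RefSeq (build GRCm38.p6). That of *C1qb* is chr4:136886201-136886450 and that of *C3* chr17:57228137-57228386, both on the minus strand. Capitals mark 3 searched motifs on either strand: GAGGAA, the core bound by PU.1, TGCTGA, a half-site of MAF factors, and TTGCNNAA, a form of the C/EBP site.
C1qb: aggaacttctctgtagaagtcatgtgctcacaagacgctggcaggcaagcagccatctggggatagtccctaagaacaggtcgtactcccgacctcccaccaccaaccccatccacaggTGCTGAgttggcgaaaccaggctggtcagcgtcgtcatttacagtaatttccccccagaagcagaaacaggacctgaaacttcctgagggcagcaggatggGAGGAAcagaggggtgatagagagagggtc
C3: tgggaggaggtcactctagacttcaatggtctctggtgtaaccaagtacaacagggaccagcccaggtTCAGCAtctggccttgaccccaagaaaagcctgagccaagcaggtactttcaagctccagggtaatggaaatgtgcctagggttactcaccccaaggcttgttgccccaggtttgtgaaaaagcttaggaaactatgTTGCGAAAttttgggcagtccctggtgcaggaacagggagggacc

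In *C1qb* the MAF half-site began 131 bases and the PU.1 core 30 bases before the start. In *C3* a MAF half-site lay on the other strand 182 bases before it and the C/EBP form 45 bases before it, and no PU.1 core was found. The promoter table held 6 of the 9 genes, and the same search found the PU.1 core also upstream of *C1qc* and the MAF half-site also upstream of *C3ar1* and *C5ar1*, with none of the 3 motifs upstream of *Cfp*. Over 32851 upstream windows of the same length, 23.3% held the PU.1 core, 16.1% the MAF half-site and 9.56% the C/EBP form. The motifs do not overlap each other, and a match describes these letters only.

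*C1qb* fell in the Ly6C hi subset of Slc29a3-/- mice, and the effect of the mutation differed between the subsets. In the Ly6C hi subset it was read at 27.3, 29.7, 35.5 and 33.1 RPM in WT (31.4 ± 3.62 RPM, mean ± SD) and at 11.1, 6.64, 5.87 and 5.88 RPM in Slc29a3-/- (7.38 ± 2.53 RPM). The groups did not overlap and the mean was 4.26-fold lower in Slc29a3-/-. The log2 fold change, on the log2(RPM + 1) scale used for all tests, was -1.99 (SE 0.254, limma adjusted p = 0.000193). This call held under all alternatives run, including those with WT replicate 4 alone and with averaged WT replicates (adjusted p = 0.0465 and 0.00674).

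In Slc29a3-/- Tlr7-/- the Ly6C hi libraries held 26.7, 11.9, 18.1 and 25.9 RPM of *C1qb* (20.6 ± 7.03 RPM). All 4 were above the 4 Slc29a3-/- libraries and below the 4 WT libraries. Slc29a3-/- was 2.80-fold lower than Slc29a3-/- Tlr7-/- (log2 fold change -1.35, SE 0.254, adjusted p = 0.00208), which held under all alternatives run. Between Slc29a3-/- Tlr7-/- and WT the adjusted p was 0.152 (log2 fold change -0.64, 95% interval -1.18 to -0.10), so the test did not pass although the ranges were apart.

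In the Ly6C low subset *C1qb* was at 74.2, 65.5, 53.5 and 57.3 RPM in WT (62.6 ± 9.16 RPM) and at 78.6, 158, 139 and 241 RPM in Slc29a3-/- (154 ± 67.0 RPM). The lowest Slc29a3-/- library, replicate 1, lay just above the highest WT library. The mean ratio was 2.46, and the difference did not pass over all genes tested (log2 fold change 1.19, SE 0.358, adjusted p = 0.0731). It passed when replicate 1 of Slc29a3-/- was left out (1.47, adjusted p = 0.0434), when replicate 4 of Slc29a3-/- Tlr7-/- was left out (adjusted p = 0.0422), when only the 2 groups were fitted (adjusted p = 0.0202) and in a fit of all 24 libraries (adjusted p = 0.0275).

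The Ly6C low Slc29a3-/- Tlr7-/- libraries split, with 28.4 and 30.4 RPM in replicates 1 and 2 and 80.7 and 71.8 RPM in replicates 3 and 4 (52.8 ± 27.3 RPM). The last 2 reached the WT range or above it and the first 2 lay below it. *C1qb* was 2.92-fold higher in Slc29a3-/- than in Slc29a3-/- Tlr7-/- (log2 fold change 1.57, SE 0.358, adjusted p = 0.0356). That call was lost in 8 of 12 fits leaving out 1 library (adjusted p up to 0.158, without Slc29a3-/- replicate 4), with RLE scaling (adjusted p = 0.0508), with both other filters on low values (adjusted p = 0.0754 and 0.0689) and with only the 2 groups fitted (adjusted p = 0.125).

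The difference between subsets was itself tested. Subtracting the Ly6C low effect of Slc29a3-/- on *C1qb* from the Ly6C hi effect gave -3.18 on the log2 scale against WT (SE 0.462, adjusted p = 0.000159) and -2.92 against Slc29a3-/- Tlr7-/- (adjusted p = 0.000535). With WT replicate 4 alone the first was -3.37 (adjusted p = 0.0931), the only alternative in which it did not pass. Within Slc29a3-/-, Ly6C low stood 20.9-fold above Ly6C hi, against 1.99-fold in WT and 2.56-fold in Slc29a3-/- Tlr7-/-. The sparse *C1qc* reads gave no test, with 27 reads over the 4 Ly6C low Slc29a3-/- libraries, 15 in Ly6C low WT, 7 in Ly6C low Slc29a3-/- Tlr7-/- and 3 to 8 in the Ly6C hi groups. The highest *C1qc* value was 0.874 RPM.

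*C1qb* varied with *Cd5l* across libraries. Likeness over the 24 libraries was taken to the mean of the C1q chains (log2 scale), which rested almost wholly on *C1qb*. The closest genes were *Cd5l* (Pearson r = 0.944), a secreted protein of tissue macrophages, *Cadm1* (0.944), a cell adhesion molecule, and *Zbtb4* (0.901), a zinc finger protein. These r values describe libraries that share subset and genotype. Within groups, r between *C1qb* and *Cd5l* was 0.647 over the 12 Ly6C hi libraries and 0.922 over the 12 Ly6C low libraries.

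*Cd5l* had means of 15.1, 1.31 and 4.85 RPM in Ly6C hi WT, Slc29a3-/- and Slc29a3-/- Tlr7-/- and of 26.7, 80.4 and 15.6 RPM in the same genotypes of Ly6C low. Of 15 red pulp macrophage genes 14 had a row. Their summed level was 538 to 663 RPM in Ly6C hi WT and 508 to 615 RPM in Ly6C hi Slc29a3-/-, but 12 to 14 of them reached 1 RPM in the former and 9 or 10 in the latter. In Ly6C low the sum was 633 to 699 RPM in WT, 844 to 1243 RPM in Slc29a3-/- and 549 to 1655 RPM in Slc29a3-/- Tlr7-/-. *Spic*, the transcription factor that defines red pulp macrophages, was at 22.0 to 41.7 RPM in Ly6C low Slc29a3-/- and 8.78 to 14.3 RPM in Ly6C low WT. In Ly6C hi, where *C1qb* fell, *Spic* was at 2.70 to 14.2 RPM in Slc29a3-/- and 4.02 to 11.8 RPM in WT, and *Vcam1*, another red pulp macrophage gene, at 18.6 to 59.5 RPM and 31.04 to 39.9 RPM, with overlapping ranges. Over the 24 libraries r between *C1qb* and the red pulp sum was 0.61 (0.606 within groups). A list of 10 conventional dendritic cell genes was at 294 to 353 RPM in Ly6C hi WT and 93.6 to 211 RPM in Ly6C hi Slc29a3-/-. Of 11 erythroid genes 5 had a row, and their sum was 80.8 to 102 RPM in Ly6C low Slc29a3-/- against 0.912 to 8.51 RPM in Ly6C low WT, although TER-119+ cells were depleted with beads before the sort. The part of these cell types in the *C1qb* results was not tested.

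**Figure D2:**
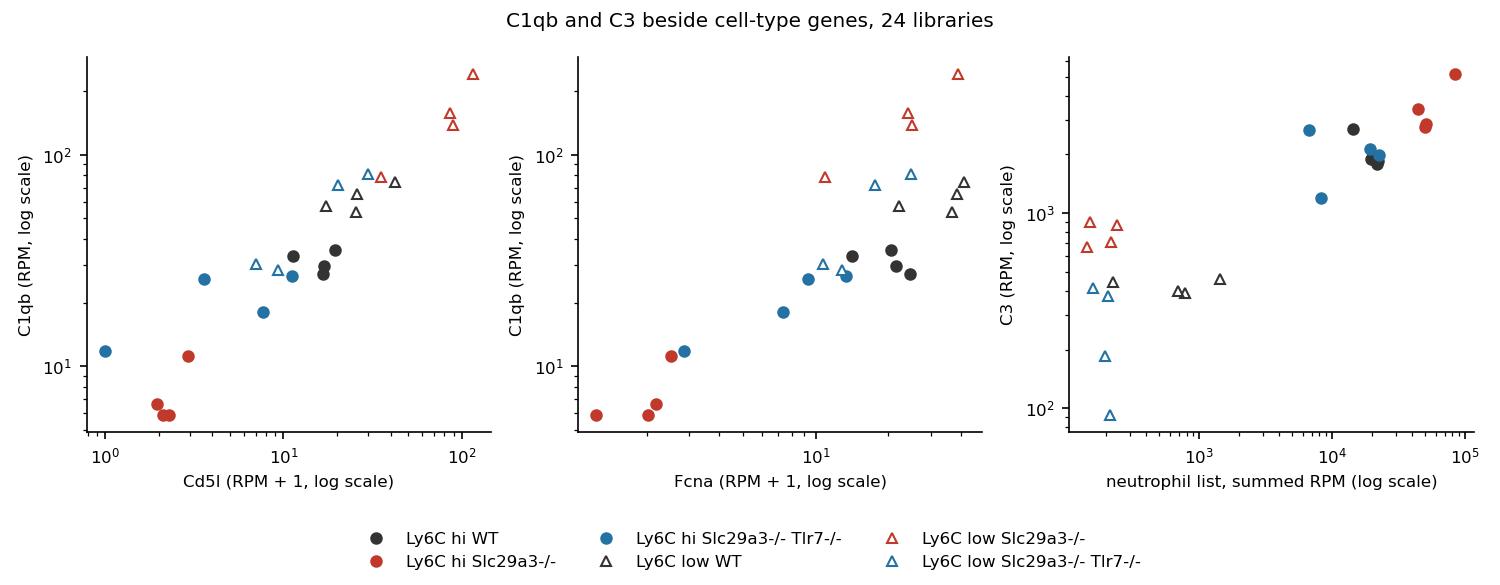
*C1qb* against *Cd5l* and against *Fcna*, and *C3* against the summed level of 12 neutrophil genes, each point 1 of 24 libraries, all axes logarithmic in RPM (RPM + 1 for *Cd5l* and *Fcna*). Filled circles are Ly6C hi and open triangles Ly6C low. *C1qb* and *Cd5l* rise together over both subsets (r = 0.944), and the 4 Ly6C hi Slc29a3-/- libraries have the highest neutrophil sums (43952 to 83880 RPM).

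*C3* (chr17:57203970-57228136, minus strand) was higher in Slc29a3-/- than in Slc29a3-/- Tlr7-/- in both subsets. In Ly6C hi it was read at 1791, 1841, 1881 and 2709 RPM in WT (2055 ± 438 RPM), at 3404, 2845, 2761 and 5151 RPM in Slc29a3-/- (3540.1 ± 1111 RPM) and at 2140.4, 1188, 2651 and 1993 RPM in Slc29a3-/- Tlr7-/- (1993 ± 607 RPM). The Slc29a3-/- libraries lay above all others, by a narrow margin over WT replicate 4 at 2709 RPM. The means were 1.72-fold above WT (log2 fold change 0.76, SE 0.253, adjusted p = 0.0367) and 1.78-fold above Slc29a3-/- Tlr7-/- (0.84, SE 0.253, adjusted p = 0.0301).

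Both *C3* calls in Ly6C hi were weak. Against WT the call was lost without Slc29a3-/- replicate 1 or 4 or any of WT replicates 1 to 3 (adjusted p up to 0.111), with no filter, in the fit of all 24 libraries, with WT replicate 4 alone (log2 fold change 0.34, adjusted p = 0.732) and with WT replicates 1 to 3 averaged (0.62, adjusted p = 0.268). Against Slc29a3-/- Tlr7-/- it was lost without Slc29a3-/- replicate 1 or 4 or Slc29a3-/- Tlr7-/- replicate 2 or 4 (log2 fold change 0.61 to 0.86, adjusted p up to 0.0998) and with no filter, all 24 libraries or only the 2 groups in the fit (adjusted p 0.0534 to 0.106).

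In Ly6C low *C3* was read at 391, 458, 398 and 441 RPM in WT (422 ± 32.8 RPM), at 670.5, 715, 896 and 872 RPM in Slc29a3-/- (788 ± 112 RPM) and at 375, 413, 185 and 92.1 RPM in Slc29a3-/- Tlr7-/- (266 ± 153 RPM). Every Slc29a3-/- library exceeded every other Ly6C low library, and replicate 4 of Slc29a3-/- Tlr7-/- was the lowest. Slc29a3-/- was 2.96-fold above Slc29a3-/- Tlr7-/- (log2 fold change 1.78, SE 0.351, adjusted p = 0.0143), a call lost without Slc29a3-/- replicate 3 or 4 or Slc29a3-/- Tlr7-/- replicate 3 (adjusted p 0.058 to 0.0672) and with only the 2 groups fitted (adjusted p = 0.0834). Against WT the 1.87-fold difference did not pass (log2 fold change 0.89, SE 0.351, adjusted p = 0.167) although the ranges were apart. It passed with only the 2 groups fitted (adjusted p = 0.00189) and when replicate 4 of Slc29a3-/- Tlr7-/- was left out (adjusted p = 0.019). The double mutant against WT did not pass (-0.89, adjusted p = 0.112) except without its replicate 1 or 2 (-1.13 and -1.18, adjusted p = 0.0491 and 0.0359).

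*C3* was higher in Ly6C hi than in Ly6C low in every genotype. It was 4.87-fold lower in Ly6C low than in Ly6C hi in WT (log2 fold change -2.26, adjusted p = 6.25e-06), 4.49-fold lower in Slc29a3-/- (-2.13, adjusted p = 7.99e-06) and 7.48-fold lower in Slc29a3-/- Tlr7-/- (-3.07, adjusted p = 5.43e-08). The Slc29a3-/- effect on *C3* did not differ detectably between the subsets (difference against WT -0.13, 95% interval -1.08 to 0.81, adjusted p = 0.898).

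The genes closest to *C3* over the 24 libraries were *Serpinb1a* (r = 0.957), an inhibitor of neutrophil serine proteases, *Mocos* (0.951), an enzyme of the molybdenum cofactor, and *Cd63* (0.947), a granule and lysosome membrane protein. In the Ly6C hi subset the 12 of 13 neutrophil genes with a row were all at 1 RPM or more in each library. Their summed level was 14256 to 22079 RPM in WT, 43952 to 83880 RPM in Slc29a3-/- and 6702 to 22286 RPM in Slc29a3-/- Tlr7-/-, although Ly6G+ cells were excluded at the sort. *Ly6g* itself was at 59.2 to 139 RPM in Ly6C hi Slc29a3-/- and 17.9 to 33.5 RPM in Ly6C hi WT. A list of 8 granulocyte-monocyte progenitor genes was at 876 to 2905 RPM in Ly6C hi Slc29a3-/- and 372 to 471 RPM in Ly6C hi WT. In Ly6C hi Slc29a3-/- Tlr7-/- it was at 386 to 958 RPM. There its mean was above WT (670 against 401 RPM), while the mean neutrophil sum was below WT (14147 against 19388 RPM). In Ly6C low, where *C3* was also highest in Slc29a3-/-, the neutrophil sum was lower in Slc29a3-/- (144 to 241 RPM) than in 3 of 4 WT libraries (222 to 1426 RPM). The r between *C3* and the neutrophil sum was 0.68 over the 12 Ly6C hi libraries (0.156 within groups). Over the 12 Ly6C low libraries it was -0.053 (-0.09 within groups), and over all 24 libraries 0.854 (-0.001 within groups). The part of neutrophil or progenitor RNA in the Ly6C hi results was not tested.

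*Cfp* (chrX:20925454-20931555, minus strand), which encodes properdin, was not called different between genotypes in either subset. In Ly6C hi it was read at 82.8, 76.0, 77.4 and 80.3 RPM in WT, at 77.5, 83.8, 102 and 61.3 RPM in Slc29a3-/- and at 70.0, 203, 135 and 109.7 RPM in Slc29a3-/- Tlr7-/-. The ranges of the 3 genotypes overlapped, and Slc29a3-/- Tlr7-/- spread widest (129.5 ± 56.1 RPM against 79.11 ± 3.001 RPM in WT). Between Slc29a3-/- and WT the log2 fold change was 0.01 with a 95% interval of -0.51 to 0.54. Replicate 1 of Slc29a3-/- Tlr7-/- was below the WT libraries. Without it *Cfp* was called higher in Slc29a3-/- Tlr7-/- than in WT (log2 fold change 0.86, adjusted p = 0.0283) and lower in Slc29a3-/- than in Slc29a3-/- Tlr7-/- (-0.85, adjusted p = 0.0103).

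In Ly6C low *Cfp* was at 39.1 to 48.9 RPM in WT, 33.6 to 86.5 RPM in Slc29a3-/- and 25.4 to 75.2 RPM in Slc29a3-/- Tlr7-/-, with overlapping ranges and no call. Ly6C low was below Ly6C hi in WT (log2 fold change -0.81, adjusted p = 0.04) and in Slc29a3-/- Tlr7-/- (-1.43, adjusted p = 0.000483), and the test did not pass in Slc29a3-/- (-0.51, 95% interval -1.11 to 0.10, adjusted p = 0.178). The WT call was lost with TMM or RLE scaling (adjusted p = 0.0537 and 0.0651), with no filter (adjusted p = 0.0888), without any 1 of the 8 WT libraries (adjusted p up to 0.0977) and with either treatment of WT replicates 1 to 3. The genes closest to *Cfp* were *Uqcr11* (r = 0.914), a subunit of respiratory complex III, *Hadh* (0.899), an enzyme of fatty acid oxidation, and *Mboat7* (0.872), a lysophospholipid acyltransferase.

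Of the anaphylatoxin receptors, *C3ar1* (chr6:122847138-122856161, minus strand) rested on few reads and rose in Ly6C low Slc29a3-/-. It was read at 1.89, 1.92, 1.69 and 0.536 RPM in Ly6C low WT (1.51 ± 0.656 RPM), at 3.66, 4.0, 4.97 and 7.23 RPM in Slc29a3-/- (4.96 ± 1.61 RPM) and at 1.13, 0.794, 1.18 and 0.799 RPM in Slc29a3-/- Tlr7-/- (0.977 ± 0.21 RPM). These values stand for 7 to 91 reads, and the 4 Slc29a3-/- libraries lay above the other 8. The mean was 3.29-fold above WT (log2 fold change 1.26, SE 0.263, adjusted p = 0.0141) and 5.08-fold above Slc29a3-/- Tlr7-/- (1.56, SE 0.263, adjusted p = 0.00564). On the log2(RPM + 1) scale changes at such low levels are understated. The first call was lost without Slc29a3-/- replicate 3 or 4 (adjusted p = 0.051 and 0.0614), with WT replicate 4 alone (log2 fold change 1.92, adjusted p = 0.1) and with averaged WT replicates (1.48, adjusted p = 0.0817). The second held in all alternatives that kept the gene; a filter at a mean of 10 RPM removed it.

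In Ly6C hi *C3ar1* was at 4.51, 2.98, 3.08 and 2.81 RPM in WT, at 1.83, 4.11, 1.51 and 1.35 RPM in Slc29a3-/- and at 3.31, 6.01, 1.74 and 4.17 RPM in Slc29a3-/- Tlr7-/-. The ranges overlapped and no comparison was called (Slc29a3-/- against WT -0.50, 95% interval -1.17 to 0.17, adjusted p = 0.251). The effect differed between subsets, by -1.76 on the log2 scale against WT (SE 0.406, adjusted p = 0.00691) and by -2.15 against Slc29a3-/- Tlr7-/- (SE 0.406, adjusted p = 0.00181). The first was lost with averaged WT replicates (-1.93, adjusted p = 0.0586) and with WT replicate 4 alone (-2.25, adjusted p = 0.176). Ly6C low was below Ly6C hi in WT (-0.82, adjusted p = 0.032) and Slc29a3-/- Tlr7-/- (-1.21, adjusted p = 0.00194) and above it in Slc29a3-/- (0.94, adjusted p = 0.0108). The WT value among these was not called with a replicate block, which pairs the subsets (adjusted p = 0.0535), with no filter, with RLE scaling, with either treatment of WT replicates 1 to 3, or without Ly6C hi WT replicate 1, 2 or 3 or Ly6C low WT replicate 4 (adjusted p 0.0505 to 0.124 in these last 4 fits), and the Slc29a3-/- value was not called without Ly6C low Slc29a3-/- replicate 4 (0.77, adjusted p = 0.0514). Its closest genes, *St7*, *Cd200r1* (an inhibitory myeloid receptor) and *Foxo4* (a forkhead transcription factor), reached r of 0.71 to 0.729.

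*C5ar1* (chr7:16246743-16259540, minus strand), the receptor for C5a, rose in Ly6C hi and fell in Ly6C low of Slc29a3-/- mice. In Ly6C hi it was read at 23.7, 23.8, 26.5 and 27.6 RPM in WT (25.4 ± 1.98 RPM), at 38.8, 35.03, 43.3 and 46.1 RPM in Slc29a3-/- (40.8 ± 4.91 RPM) and at 20.3, 28.5, 21.5 and 25.3 RPM in Slc29a3-/- Tlr7-/- (23.9 ± 3.71 RPM). All 4 Slc29a3-/- libraries lay above the other 8, whose ranges overlapped. The mean was 1.61-fold above WT (log2 fold change 0.66, SE 0.152, adjusted p = 0.00601) and 1.71-fold above Slc29a3-/- Tlr7-/- (0.75, SE 0.152, adjusted p = 0.00336). The latter held under all alternatives run; the former was lost with WT replicate 4 alone (0.54, adjusted p = 0.369) and with averaged WT replicates (0.62, adjusted p = 0.0856). The neutrophil sum given with *C3* was also highest in these 4 libraries (r with *C5ar1* 0.781 over the 12 Ly6C hi libraries, -0.04 within groups). The progenitor sum overlapped between Slc29a3-/- (876 to 2905 RPM) and Slc29a3-/- Tlr7-/- (386 to 958 RPM). The part of both here was not tested.

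In Ly6C low *C5ar1* was at 70.8, 49.1, 71.9 and 94.4 RPM in WT (71.5 ± 18.5 RPM), at 30.2, 36.1, 38.6 and 41.3 RPM in Slc29a3-/- (36.5 ± 4.73 RPM) and at 26.6, 48.1, 36.1 and 25.6 RPM in Slc29a3-/- Tlr7-/- (34.1 ± 10.5 RPM). Both mutant genotypes lay below WT, the closest pair being 48.1 and 49.1 RPM. Against WT, *C5ar1* was lower in Slc29a3-/- (log2 fold change -0.92, SE 0.229, adjusted p = 0.0342) and in Slc29a3-/- Tlr7-/- (-1.06, SE 0.229, adjusted p = 0.0192). The 2 mutants were not called different (0.13, 95% interval -0.36 to 0.62, adjusted p = 0.774). Both calls were lost without WT replicate 1 or 3 (adjusted p 0.0576 to 0.107), with WT replicate 4 alone (adjusted p = 0.218 and 0.393) and with averaged WT replicates (-1.08 and -1.21, adjusted p = 0.135 and 0.165). The first was also lost without any 1 Slc29a3-/- library (adjusted p 0.0715 to 0.109) and with no filter (adjusted p = 0.0646), and the second with only the 2 groups fitted (adjusted p = 0.0948).

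The *C5ar1* effect of Slc29a3-/- against WT differed between subsets by 1.58 on the log2 scale (SE 0.274, adjusted p = 0.000733). With averaged WT replicates this was 1.70 (adjusted p = 0.0164) and with WT replicate 4 alone 1.89 (adjusted p = 0.076). Against Slc29a3-/- Tlr7-/- the difference was 0.62 (adjusted p = 0.161), which passed with RLE scaling (0.82, adjusted p = 0.0469). Ly6C low was 2.82-fold above Ly6C hi in WT (log2 fold change 1.42, adjusted p = 2.93e-06), with values of -0.16 (adjusted p = 0.554) in Slc29a3-/- and 0.46 (adjusted p = 0.0706) in Slc29a3-/- Tlr7-/-. The genes closest to *C5ar1* were *Arhgap1*, *Donson* (DNA replication) and *Nup107* (nuclear pore), at r of 0.704 to 0.741.

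*Cd93* (chr2:148436640-148443563, minus strand) marked the Ly6C hi subset more than any other of the 6 genes and fell there in Slc29a3-/-. It was read at 115, 111, 134 and 120.0 RPM in Ly6C hi WT (120.1 ± 9.68 RPM), at 56.0, 74.1, 65.7 and 54.3 RPM in Slc29a3-/- (62.5 ± 9.20 RPM) and at 73.9, 256, 175 and 146 RPM in Slc29a3-/- Tlr7-/- (163 ± 75.3 RPM). Slc29a3-/- did not overlap WT, but replicate 1 of Slc29a3-/- Tlr7-/- at 73.9 RPM fell within the Slc29a3-/- range. The mean was 1.92-fold lower than in WT (log2 fold change -0.94, SE 0.268, adjusted p = 0.018) and 2.61-fold lower than in Slc29a3-/- Tlr7-/- (-1.25, SE 0.268, adjusted p = 0.005). The first call was lost without WT replicate 3 or Slc29a3-/- replicate 4 (adjusted p = 0.0514 and 0.0518), with WT replicate 4 alone (-0.94, adjusted p = 0.354) and with averaged WT replicates (-0.94, adjusted p = 0.115), and the second held under all alternatives run. The neutrophil sum given with *C3* was highest where *Cd93* was lowest (r = -0.882 over the 12 Ly6C hi libraries, -0.621 within groups). In Ly6C hi the sum of the 6 Ly6C hi monocyte genes was 3243 to 4655 RPM in Slc29a3-/-. It was 4420 to 9377 RPM in WT and 4644 to 8216 RPM in Slc29a3-/- Tlr7-/-. Its r with *Cd93* was 0.954 over all 24 libraries and -0.115 within groups. The part of both lists was not tested.

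In Ly6C low *Cd93* stayed between 3.88 and 11.3 RPM in all 12 libraries, with no genotype call. Without WT replicate 4 it was called lower in Slc29a3-/- Tlr7-/- than in WT (-0.77, adjusted p = 0.0335). Its Ly6C low level was 13.4-fold below Ly6C hi in WT, 9.93-fold in Slc29a3-/- and 28.5-fold in Slc29a3-/- Tlr7-/- (log2 fold changes -3.64, -3.13 and -4.51, adjusted p at most 8.75e-10). The Slc29a3-/- against Slc29a3-/- Tlr7-/- effect differed between subsets (-1.38, SE 0.381, adjusted p = 0.0249), which was lost with TMM and RLE scaling (adjusted p = 0.0632 and 0.0716), with no filter (adjusted p = 0.054) and without any 1 of Ly6C hi Slc29a3-/- replicate 4, Ly6C hi Slc29a3-/- Tlr7-/- replicate 3 and Ly6C low Slc29a3-/- replicate 3 (adjusted p 0.0543 to 0.0595). The closest genes were *Fn1* (r = 0.983), encoding fibronectin, *Vim* (0.981), encoding vimentin, and *S100a10* (0.981), a partner of annexin A2. Within groups *Cd93* and *Cfp* also varied together in Ly6C hi (r = 0.923 over 12 libraries, 0.072 over the 12 Ly6C low libraries).

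**Figure D3:**
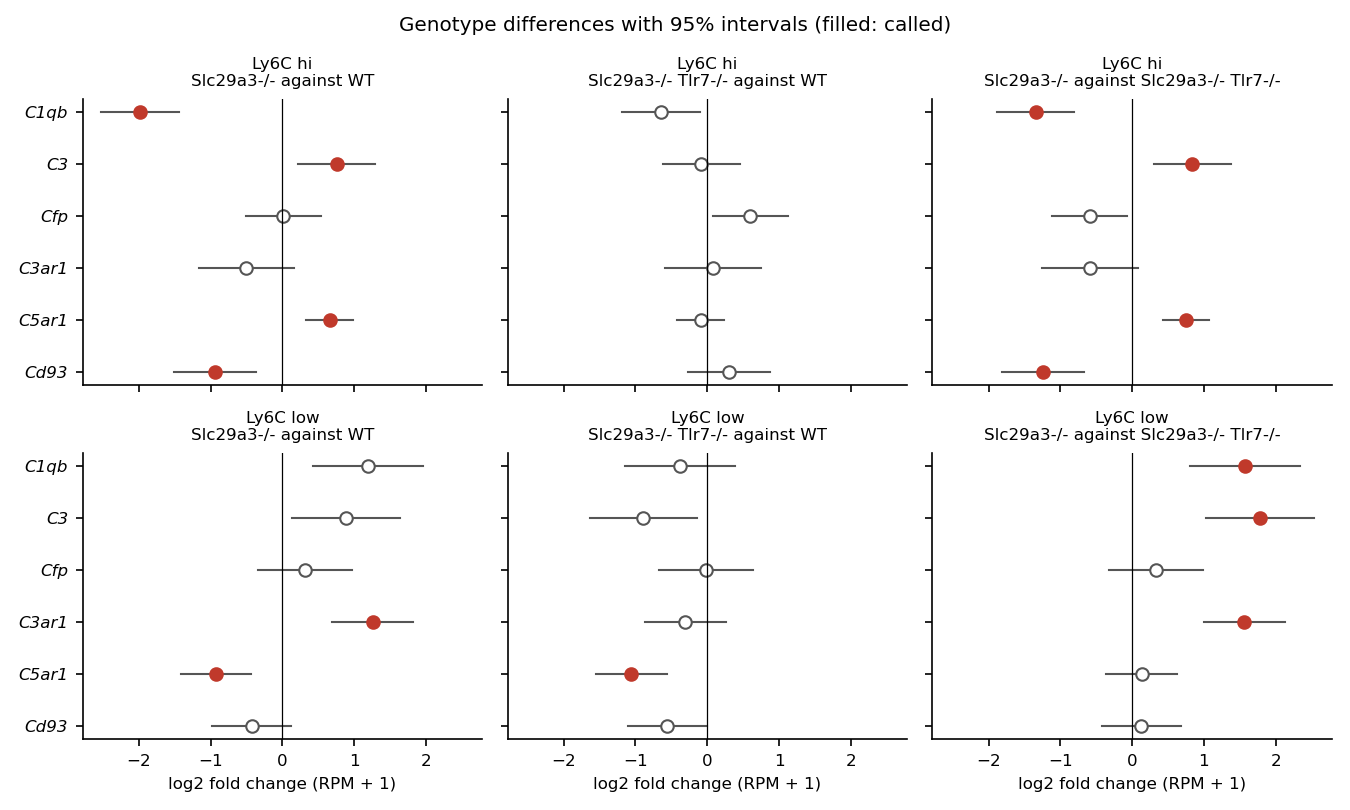
Log2 fold changes on the log2(RPM + 1) scale with 95% intervals for the 6 tested genes in 3 genotype comparisons (columns) of each subset (rows); filled points passed adjusted p under 0.05 and a fold over 1.5. *C1qb* lies at -1.99 in Ly6C hi and 1.19 in Ly6C low for Slc29a3-/- against WT, and no point is filled for Slc29a3-/- Tlr7-/- against WT in Ly6C hi.

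Counted over the 6 tested genes, the calls came mostly from Slc29a3-/-. In Ly6C hi, Slc29a3-/- against WT had 2 genes higher (*C3*, *C5ar1*), with 8.15% of all 10561 genes tested called higher, and 2 lower (*C1qb*, *Cd93*), with 14.3% called lower. Against Slc29a3-/- Tlr7-/- the same 4 genes were called in the same directions, beside 9% higher and 8.22% lower of all genes. These comparisons share the Slc29a3-/- libraries. Slc29a3-/- Tlr7-/- against WT had 0 of 6 called by limma, beside 0.312% higher and 1.11% lower of all genes. At an unadjusted p under 0.05 it had 2, *C1qb* lower and *Cfp* higher. Here and below, shares of all genes are for the adjusted threshold. None was computed at an unadjusted p, so counts at that threshold have no share to be set against. Median log2 fold changes of the 6 genes were -0.24, -0.59 and 0.001 in these comparisons, against -0.14, -0.12 and -0.06 over all genes. TMM scaling moved the median of all genes for Slc29a3-/- against WT to 0.01 and the share of higher genes among all calls from 36.4% to 53.8%, with no change in which of the 6 genes were called.

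In Ly6C low, Slc29a3-/- against WT had 1 gene higher (*C3ar1*; 1.9% of 10317 genes tested were higher) and 1 lower (*C5ar1*; 2.53% were lower). Slc29a3-/- against Slc29a3-/- Tlr7-/- had 3 higher (*C1qb*, *C3*, *C3ar1*) beside 1.22% of all genes, and none lower beside 0.708%. Slc29a3-/- Tlr7-/- against WT had only *C5ar1* lower, beside 2.28% higher and 6.03% lower of all genes. At the same fold and an unadjusted p under 0.05, 4 genes were called for Slc29a3-/- against WT, with *C1qb* and *C3* added. The share of all genes at that threshold was not computed. Median log2 fold changes of the 6 genes were 0.60, 0.95 and -0.47 in these comparisons, against 0.002, 0.08 and -0.10 over all genes.

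Between the subsets, all 6 genes differed in WT. Of these, 2 were higher in Ly6C low, with 8.46% of 11042 genes tested called higher, and 4 were lower, with 17.5% called lower. In Slc29a3-/- 2 were higher (18.5% of all genes) and 2 lower (16.5%), and in Slc29a3-/- Tlr7-/- 1 was higher (9.64%) and 4 were lower (18.7%). *C1qb* was higher in Ly6C low in all 3 genotypes, with adjusted p = 0.0266 in WT, a call that was lost with no filter (adjusted p = 0.0625), without replicate 1 or 2 of either WT group (adjusted p 0.058 to 0.0732), with averaged WT replicates (0.91, adjusted p = 0.299) and with WT replicate 4 alone (0.77, adjusted p = 0.697). The genotype effect differed between subsets for 3 of 6 genes for Slc29a3-/- against WT (8.85% of all genes), for 3 of 6 for Slc29a3-/- against Slc29a3-/- Tlr7-/- (8.97%) and for 0 of 6 for Slc29a3-/- Tlr7-/- against WT (0.0634%; by limma at an unadjusted p under 0.05 there were 2, *C5ar1* and *Cd93*).

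**Figure D4:**
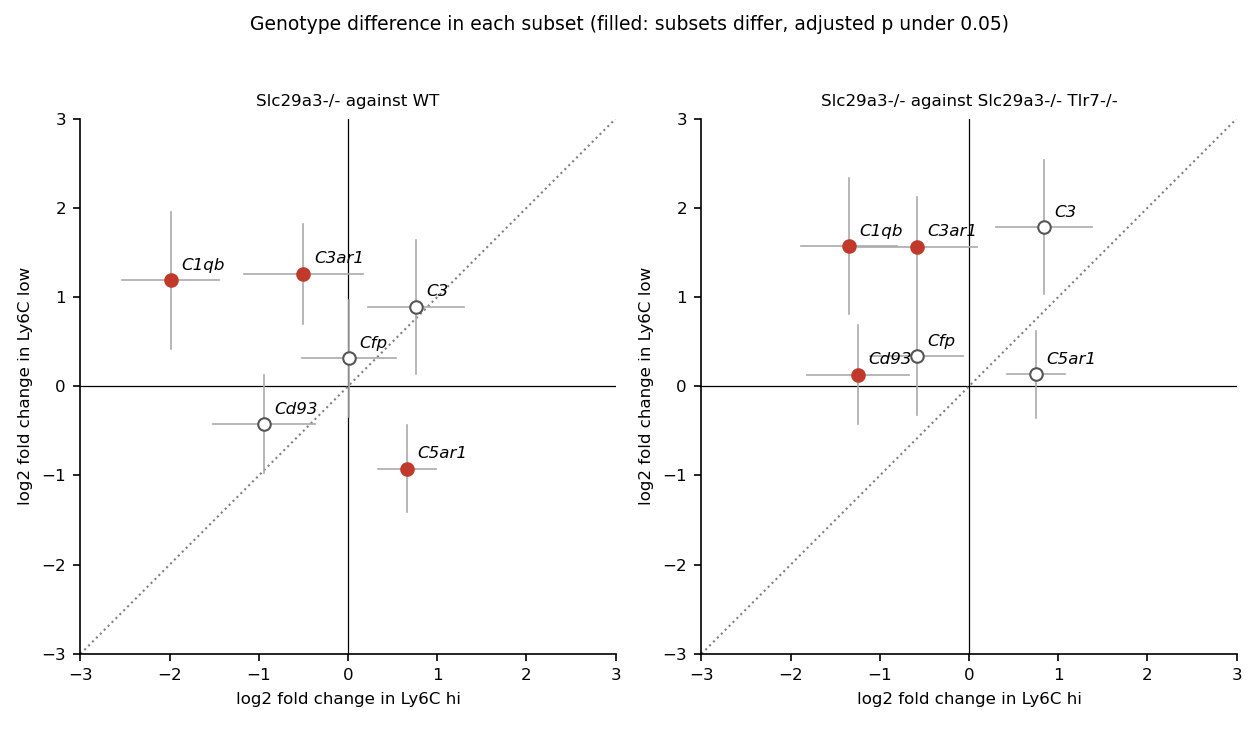
Log2 fold change in Ly6C low (y axis) against that in Ly6C hi (x axis), with 95% intervals, for Slc29a3-/- against WT (left) and against Slc29a3-/- Tlr7-/- (right); the dotted line marks equal change and filled points differed between subsets at adjusted p under 0.05. *C1qb* and *C3ar1* lie in the upper left of both panels, and *C5ar1* lies in the lower right against WT.

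Ordered by group mean, the 6 groups ran from Ly6C low Slc29a3-/- down to Ly6C hi Slc29a3-/- for *C1qb*, with 3 of 5 neighbouring pairs not overlapping. The *C3* order ran from Ly6C hi Slc29a3-/- down to Ly6C low Slc29a3-/- Tlr7-/-, also with 3 of 5 pairs apart. *Cd93* had 2 pairs apart and *C5ar1* had 1, Ly6C low WT above Ly6C hi Slc29a3-/-. For *Cfp* and *C3ar1* each group overlapped its neighbours. The share of neighbouring pairs apart over all genes was not computed. These counts are therefore not a result about these 6 genes in particular.

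Other genes of the pathway were taken from lists of classical and lectin components, the alternative pathway, terminal components, regulators and other receptors. Of these, 44 had a row and 16 could be tested in each subset. In Ly6C hi, Slc29a3-/- against WT had 1 of 16 higher and 4 lower, beside 8.15% higher and 14.3% lower of all genes. Slc29a3-/- against Slc29a3-/- Tlr7-/- also had 1 higher and 4 lower, beside 9% and 8.22%, while Slc29a3-/- Tlr7-/- against WT had 0 called by limma in either direction (0.312% and 1.11% of all genes) and 4 at an unadjusted p under 0.05.

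The ficolins, recognition proteins of the lectin pathway, moved apart in Ly6C hi. *Fcna*, a ficolin of macrophages, was at 23.5, 20.6, 19.6 and 13.1 RPM in WT, 1.51, 1.19, 1.03 and 0.238 RPM in Slc29a3-/- and 12.4, 1.87, 6.34 and 8.34 RPM in Slc29a3-/- Tlr7-/-. Slc29a3-/- lay below both other genotypes in every library (log2 fold change -3.36 against WT, adjusted p = 0.000133, and -1.89 against Slc29a3-/- Tlr7-/-, adjusted p = 0.00377). Its mean over the Ly6C hi libraries was 9.15 RPM, under the 10 RPM set for naming such a gene, so these values were chosen after they were seen. *Fcnb*, a ficolin of granulocytes and their precursors, was at 366, 440.5, 394 and 259 RPM in WT and 1095, 888, 969 and 1820 RPM in Slc29a3-/- (1.67, adjusted p = 0.000991). With WT replicate 4 alone *Fcnb* was still called (2.14, adjusted p = 0.0416) and *Fcna* was not (-2.87, adjusted p = 0.06), and with averaged WT replicates both were called. *Fcna* varied with *C1qb* over the 12 Ly6C hi libraries (r = 0.959, and 0.754 within groups). Over the 12 Ly6C low libraries r was 0.508, and 0.871 within groups. The group means there had opposite orders: *Fcna* was at 23.8 RPM in Slc29a3-/- against 33.6 RPM in WT, and *C1qb* was higher in Slc29a3-/-.

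Among receptors, *Itgax*, the alpha chain of complement receptor 4, was lower in Ly6C hi Slc29a3-/- (57.3 ± 19.9 RPM) than in WT (115 ± 15.1 RPM; log2 fold change -1.05, adjusted p = 0.0123). *Lrp1*, an endocytic receptor that takes part in uptake of C1q-coated cells, was lower in the same comparison (515 ± 132 RPM against 893 ± 143 RPM; -0.82, adjusted p = 0.00931). Both were also lower against Slc29a3-/- Tlr7-/- (-1.003, adjusted p = 0.0206, and -1.03, adjusted p = 0.00295). Against WT both calls were lost with averaged WT replicates (-0.96 and -0.92, adjusted p = 0.119 and 0.0542) and with WT replicate 4 alone (-0.78 and -1.14, adjusted p = 0.455 and 0.123). The other lowered genes, *C6* against WT and *Clu* against Slc29a3-/- Tlr7-/-, had mean levels of 2.98 and 5.62 RPM over the Ly6C hi libraries and are named here after their values were seen. With WT replicate 4 alone *C6* was not called (-2.59, adjusted p = 0.103).

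In Ly6C low the other pathway genes gave 0 of 16 calls by limma for Slc29a3-/- against WT, beside 1.9% higher and 2.53% lower of all genes. At an unadjusted p under 0.05 there were 2, with no share of all genes computed at that threshold. Slc29a3-/- against Slc29a3-/- Tlr7-/- had 1 higher (1.22% of all genes). Slc29a3-/- Tlr7-/- against WT had 1 higher and 1 lower (2.28% and 6.03%). The first single gene was *Cd55*, which encodes decay-accelerating factor (2.27, adjusted p = 0.00665, mean 2.48 RPM, named after its value was seen). The pair was *Itgax*, higher (0.60, adjusted p = 0.0453), and *Fcnb*, lower at a mean of 2.44 RPM. *Itgax* was not called with averaged WT replicates (0.49, adjusted p = 0.333) or WT replicate 4 alone (0.27, adjusted p = 0.64), and *Fcnb* did not pass the filter on low values in either fit.

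**Figure D5:**
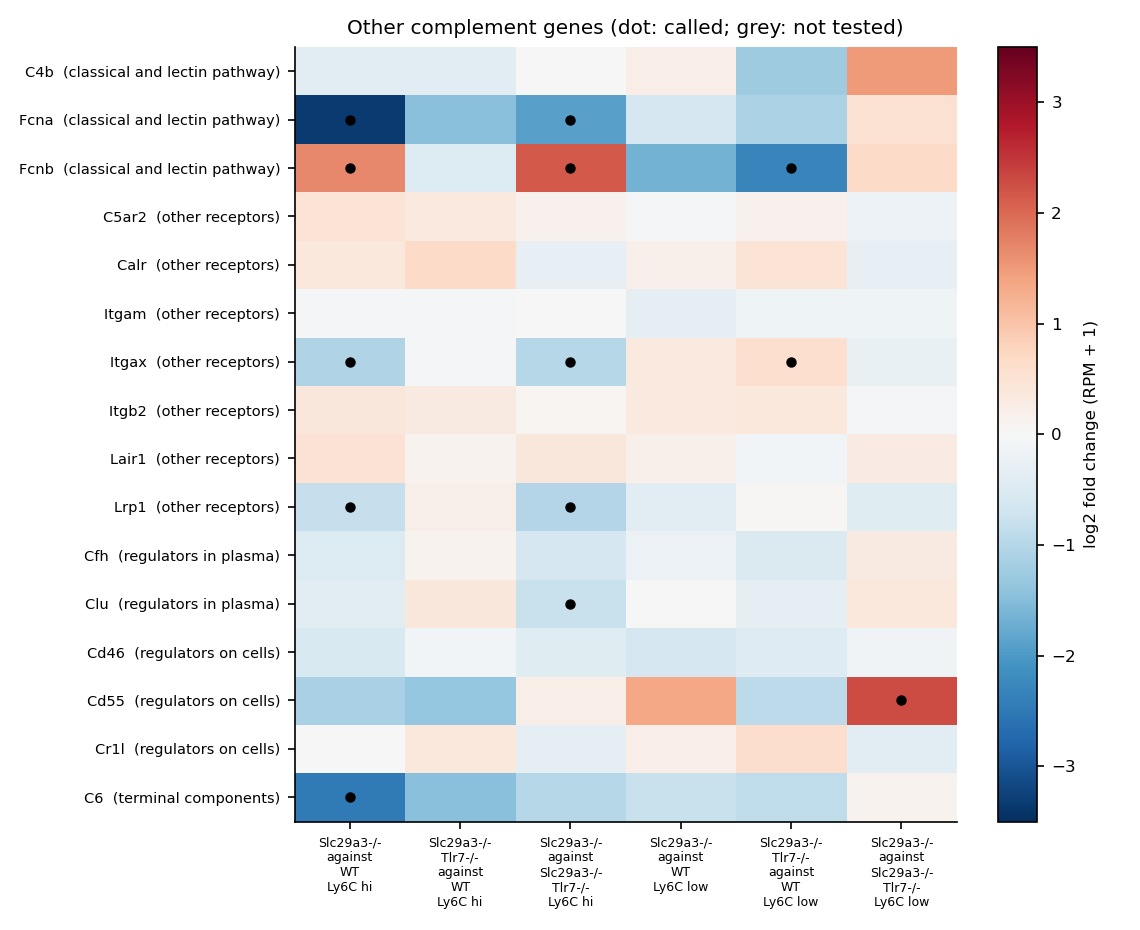
Log2 fold change (colour) of the 16 other complement genes tested, grouped by list, in 3 genotype comparisons of Ly6C hi (left 3 columns) and Ly6C low (right 3 columns); dots mark calls. *Fcna* is lowest and *Fcnb* highest in Ly6C hi Slc29a3-/- against WT (-3.36 and 1.67), and the Slc29a3-/- Tlr7-/- against WT column of Ly6C hi has no dot.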

How the data were processed

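RNA of 24 sorted libraries (RIN above 7.3, 1 ng each) was amplified with the Ion AmpliSeq Transcriptome Mouse panel, 1 amplicon per gene, and sequenced on an Ion Proton. The submitters' processing notes name the AmpliSeqRNA plug-in 5.2.0.3 and Torrent Suite 5.2.2, and the methods name STAR on mm10, HTSeq and DESeq2. The authors deposited RPM values, reads scaled to a fixed total per library, in which 0 reads are written as 0.0001. Those values were set to 0 here, and 27 gene names turned into dates were repaired. Reads per library were inferred from the RPM steps.

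Libraries were grouped by their labels. Values were tested as log2(RPM + 1) with limma 3.58.1 (trend, R 4.3.3), two-sided, on genes reaching 1 RPM in 4 or more of the libraries fitted. Genotypes were fitted within each subset (12 libraries), and subsets and differences between them over all 24. A call needed a Benjamini-Hochberg adjusted p under 0.05 over all genes tested and, other than for differences between subsets, a fold over 1.5. The script was tested on simulated data. Members and lists were chosen with earlier results of these data known. Genes most like a member were the 3 with the highest Pearson r over 24 libraries among genes at a mean of 10 RPM or more; other pathway genes were named where called at a mean of at least 10 RPM over the libraries compared. In WT, same-numbered Ly6C hi and Ly6C low libraries correlated at 0.259 to 0.619 in their deviations from the group means. In Slc29a3-/- the values were -0.0813 to 0.255 and in Slc29a3-/- Tlr7-/- -0.456 to 0.338. The WT values cannot show pairing, because WT replicates 1 to 3 stood apart from replicate 4 in both subsets. Ly6C hi WT replicates 2 and 3 correlated best with Ly6C low WT replicates 3 and 1, and WT replicates 1 and 4 with their own number. Slc29a3-/- replicates 1 and 2 and Slc29a3-/- Tlr7-/- replicates 1 and 4 also correlated best with their own number. Slc29a3-/- replicates 3 and 4 and Slc29a3-/- Tlr7-/- replicates 2 and 3 did not. Whether the mutant subsets were paired by mouse is not stated in the labels. The main fit used no pairs. Alternatives were other scalings, filters, pseudocounts, sample choices and a replicate block. Averaging WT replicates 1 to 3, and both treatments of WT for the other pathway genes, were added after seeing the data. Promoter sequences were from RefSeq (GRCm38.p6). Floors cover counting error only.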

Additional observations from a re-analysis of the deposited data

Results flagged for a closer look

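The genotype effect differed between the subsets, by a test of the difference itself, for 4 of the 6 genes. For Slc29a3-/- against WT, the Ly6C low effect subtracted from the Ly6C hi effect gave -3.176 for *C1qb*, 1.581 for *C5ar1* and -1.76 for *C3ar1* on the log2 scale. For Slc29a3-/- against Slc29a3-/- Tlr7-/- it was -2.917 for *C1qb*, -2.145 for *C3ar1* and -1.377 for *Cd93*. Adjusted p-values and the alternatives that ended a call are given with each gene above.

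The 8 genes with a row were screened in those of the 6 groups where the highest value was at least 1 RPM. In 4 cases, over 3 groups, 1 library lay far from the other 3 by Dixon's test at the 95% level, which chance alone gives in a small share of groups. Replicate 1 of Ly6C hi Slc29a3-/- had 11.145 RPM of *C1qb* against 5.867 to 6.642 RPM, toward the other genotypes. Replicate 4 of Ly6C hi WT had 2709.38 RPM of *C3* against 1790.68 to 1880.833 RPM, and it is the library with the other barcode range. Replicate 1 of Ly6C hi WT had 4.509 RPM of *C3ar1* against 2.808 to 3.081 RPM. Replicate 4 of Ly6C low WT had 0.536 RPM of *C3ar1*, 7 reads, against 1.686 to 1.921 RPM. This library too has the other barcode range.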

How the results depend on the processing

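Over 72 results of single genes and 1923 alternative values, 1808 kept their side of the threshold, 97 lost a call, 18 gained one and none of the called values changed sign. Of the 1808, 20 were uncalled values that changed sign. With WT represented by replicate 4 alone, a lone library taken to vary like the mutants, the genes called of 6 fell from 4 to 1 for Slc29a3-/- against WT in Ly6C hi, from 2 to 0 in Ly6C low, from 1 to 0 for Slc29a3-/- Tlr7-/- against WT in Ly6C low, from 6 to 3 for Ly6C low against Ly6C hi in WT and from 3 to 0 for the difference between subsets of Slc29a3-/- against WT. Averaging WT replicates 1 to 3 gave 1, 0, 0, 3 and 2. For Slc29a3-/- against WT in Ly6C low the count was 1 with no filter, with a mean of at least 10 RPM and with a replicate block, and 4 at an unadjusted p and with only the 2 groups fitted. An unadjusted p gave 2 for Slc29a3-/- Tlr7-/- against WT in either subset, and fitting only the 2 groups gave 0 in Ly6C low. Slc29a3-/- against Slc29a3-/- Tlr7-/- in Ly6C low fell to 1 with a mean of at least 10 RPM or only the 2 groups fitted, and Ly6C low against Ly6C hi in WT fell to 3 with no filter. The cause was not tested, except that the 10 RPM filter removes *C3ar1*. The shares of all genes called in these fits, and in those below leaving out 1 library, were not computed. A change in count is therefore not a result about these 6 genes in particular.

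Leaving out 1 library gave 2 to 4, 0 to 1 and 3 to 5 called genes in Ly6C hi for Slc29a3-/- against WT, Slc29a3-/- Tlr7-/- against WT and Slc29a3-/- against Slc29a3-/- Tlr7-/-. In Ly6C low it gave 0 to 4, 0 to 2 and 1 to 3. Between subsets it gave 3 to 6 in WT, 3 to 4 in Slc29a3-/- and 5 to 5 in Slc29a3-/- Tlr7-/-, and 3 to 3, 0 to 0 and 2 to 3 for the 3 differences of effects. In Ly6C hi, Slc29a3-/- against WT fell to 2 without WT replicate 3 or Slc29a3-/- replicate 4. In Ly6C low it fell to 1 without WT replicate 1 or 3 or Slc29a3-/- replicate 2, to 0 without Slc29a3-/- replicate 3 or 4, and rose to 4 without Slc29a3-/- Tlr7-/- replicate 4. Slc29a3-/- Tlr7-/- against WT in Ly6C low gave 0 without WT replicate 1 or 3 and 2 without WT replicate 4 or Slc29a3-/- Tlr7-/- replicate 1 or 2. Slc29a3-/- against the double mutant in Ly6C low gave 1 without Slc29a3-/- replicate 3 or 4, and Ly6C low against Ly6C hi in WT gave 3 without Ly6C hi WT replicate 1 or 2.

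The labels tie same-numbered libraries together by a number only, between genotypes and between subsets. They do not say whether the subsets of a mutant came from the same mice, and the correlations given above cannot settle it. The replicate block took the call from *C5ar1* in Ly6C low Slc29a3-/- against WT (adjusted p = 0.0713) and, between subsets, a replicate block of genotype and number together took the call from *C3ar1* in WT (adjusted p = 0.0535) and from no other of the 6 genes in WT. The 2 planned count-model tests were not run, because the values are RPM with 0 reads written as 0.0001. Few reads limit what can be said of *C1qa*, *C1qc* and, at 7 to 91 reads, *C3ar1*. Whether this came from low expression, depth or the yield of the amplicon was not tested.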

Other observations

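Other complement genes also separated the subsets. *Itgax* and *Itgb2*, the chains of complement receptor 4, and *Lair1*, an inhibitory receptor that binds C1q, were higher in Ly6C low than in Ly6C hi in all 3 genotypes. Their log2 fold changes in WT were 2.94, 1.07 and 2.54 (limma adjusted p at most 1.42e-05), and in Slc29a3-/- they were 4.34, 1.02 and 2.20. With WT replicate 4 alone the WT call on *Itgb2* was lost (0.45, adjusted p = 0.537). *Itgax* was at 896 ± 158 RPM in Ly6C low WT and 1137 ± 176 RPM in Ly6C low Slc29a3-/-. *Fcnb* was lower in Ly6C low, by -6.03 in WT, -9.37 in Slc29a3-/- and -7.88 in Slc29a3-/- Tlr7-/-. The subset difference of *Fcna* was called in Slc29a3-/- (3.55, adjusted p = 6.66e-08) and Slc29a3-/- Tlr7-/- (1.13, adjusted p = 0.0306). The difference of its Slc29a3-/- effect between subsets was -2.78 against WT (adjusted p = 0.0023), which passed with averaged WT replicates (adjusted p = 0.0493) and not with WT replicate 4 alone (adjusted p = 0.234). *Cr1l*, which encodes the rodent regulator Crry, was higher in Ly6C low in Slc29a3-/- (0.73, adjusted p = 0.000431) and in Slc29a3-/- Tlr7-/- (0.77, adjusted p = 0.000364).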
